A study of Mus musculus with 4 samples.

Results

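The genes described here are 9 liver-enriched transcription factors, *Foxa1*, *Foxa2*, *Foxa3*, *Cebpa*, *Cebpb*, *Onecut1*, *Onecut2*, *Prox1* and *Gata4*, taken by symbol from a table of 20642 gene symbols. All 9 were in the table with 1 transcript each, and all 9 were among its 12705 active genes, those with reads near the promoter and more than 4 normalized reads per kb of gene body on average. The study measured nascent RNA by PRO-seq (precision nuclear run-on sequencing), in which nuclei are isolated and the RNA being elongated by bound polymerases is tagged with biotin and sequenced. Livers were those of C57BL/6 mice on postnatal day 14. The WT group (libraries WT1 and WT2) carried 2 intact copies of *Hdac3* (+/+), and the KO group (libraries KO1 and KO2) carried a conditional allele with a second conditional or a null allele (F/F or F/-), and mice of both groups also carried Alb-Cre. Alb-Cre is driven by the albumin promoter, so it acts in hepatocytes and their precursors, from which bile duct cells also come, and endothelial, stellate and blood cells of the liver are not its targets. Each library came from 20000000 nuclei of several mice, and the values are thus means over mice.

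HDAC3 is a histone deacetylase that works with nuclear receptor corepressors. Hepatocytes are specified and kept in their state by a network of transcription factors that bind one another's genes and the genes of liver metabolism. FOXA proteins are pioneer factors that open chromatin at liver enhancers, C/EBP proteins are basic leucine zipper factors of metabolic and acute-phase genes, ONECUT proteins (hepatocyte nuclear factor 6 and its relative) carry a cut domain and a homeodomain, PROX1 is a homeodomain factor and corepressor of hepatoblasts and hepatocytes, and GATA4 is a zinc finger factor. A polymerase that has started often pauses just downstream of the start site, and its release into the gene body is a regulated step. The promoter-proximal value of a gene counts reads in whichever 50 bp window holds the most of them within 500 bp of the transcription start site, and the gene body value counts those from 1 kb downstream of that site to the end of the transcript.

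The promoters of 4 members are shown because they belong to the 3 genes whose promoter-proximal reads fell (*Foxa1*, *Foxa2*, *Onecut1*) and to the member with the highest gene body density (*Cebpa*). The sequences are from RefSeq (GRCm38.p6, in which 7 of the 9 members were matched) and run 5′ to 3′ on the strand of the gene from 250 bases before its start through the first 20 bases of the transcript. They lie at chr12:57546092-57546361 on the minus strand for *Foxa1*, chr2:148046950-148047219 on the minus strand for *Foxa2*, chr9:74861671-74861940 on the plus strand for *Onecut1* and chr7:35119043-35119312 on the plus strand for *Cebpa*. The starts of the *Foxa1* and *Cebpa* sequences lie 10 bases from the GENCODE start of the measured transcript. Capitals mark matches, on either strand, to the motifs named after the sequences.
Foxa1: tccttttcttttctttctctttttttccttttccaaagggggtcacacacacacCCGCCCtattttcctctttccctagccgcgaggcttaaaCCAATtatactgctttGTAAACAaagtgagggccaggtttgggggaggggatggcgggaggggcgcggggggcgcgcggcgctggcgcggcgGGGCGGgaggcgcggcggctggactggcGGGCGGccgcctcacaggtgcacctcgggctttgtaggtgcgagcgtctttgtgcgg
Foxa2: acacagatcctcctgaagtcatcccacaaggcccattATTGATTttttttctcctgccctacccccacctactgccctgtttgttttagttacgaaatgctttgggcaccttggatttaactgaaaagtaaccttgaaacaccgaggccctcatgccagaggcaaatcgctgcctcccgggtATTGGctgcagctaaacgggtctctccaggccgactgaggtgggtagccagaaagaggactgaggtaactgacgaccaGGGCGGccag
Onecut1: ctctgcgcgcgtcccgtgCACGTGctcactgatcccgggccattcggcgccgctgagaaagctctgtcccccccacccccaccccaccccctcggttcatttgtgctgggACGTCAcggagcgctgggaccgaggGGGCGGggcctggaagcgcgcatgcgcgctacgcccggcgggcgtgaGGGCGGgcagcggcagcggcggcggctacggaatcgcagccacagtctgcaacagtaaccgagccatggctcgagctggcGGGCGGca
Cebpa: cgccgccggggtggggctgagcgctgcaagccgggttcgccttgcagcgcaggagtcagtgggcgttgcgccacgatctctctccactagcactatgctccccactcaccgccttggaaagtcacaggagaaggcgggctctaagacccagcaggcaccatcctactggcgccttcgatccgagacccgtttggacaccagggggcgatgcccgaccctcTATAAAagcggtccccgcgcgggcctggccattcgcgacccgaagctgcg
The motifs were searched in the windows of 300 bases around the start that RefSeq promoters gave (250 before, 50 after). The *Foxa1* promoter held the FOXA type motif TGTTTAC, as its reverse complement, from 141 bases upstream of the start, and 3.65% of all 32851 promoters held it. The *Foxa2* promoter held the ONECUT type motif ATTGATT from 213 bases upstream, as did 2.86% of promoters. The *Onecut1* promoter held an E box (CACGTG, in 7.15% of promoters) and a cyclic AMP element core (TGACGT, in 7.51%), which share letters. The *Cebpa* promoter held a TATA box (TATAAA, in 13.6%) from 30 bases upstream and no other match. The *Foxa1*, *Foxa2* and *Onecut1* promoters also held the GC box GGGCGG (35.7% of promoters), and those of *Foxa1* and *Foxa2* the CCAAT box CCAAT (37.4%). Among the 7 promoters, none held the FOXA type TGTTTGC (5.07% of all promoters), the C/EBP type TTGCNNAA (10.8%, which shares letters with the former) or the GATA type AGATAA (11.2%). These matches are descriptions of letters in a window and not of bound sites.

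The 4 libraries held 16628518 to 26190040 reads on genes, and the promoter-proximal share of these reads was 9.38% and 10.3% in WT and 13.6% and 17.0% in KO. Gene body reads on *Hdac3* were 665 and 648 normalized reads in WT and 609 and 582 in KO (log2 fold change -0.14, adjusted p = 0.413). The table does not resolve the conditional part of *Hdac3*, so this value is no check of the genotype labels. The libraries were liver by their markers: the summed gene body density of 8 hepatocyte markers, among them *Alb* and *Apoa1*, was 26171 and 28851 normalized reads per kb in WT, and that of 7 cholangiocyte markers, the bile duct cells, was 89.7 and 90.1. The markers moved with genotype, and over all active genes 11.4% were called down and 10.4% up in the gene body (rule below). Summed hepatocyte markers were 11951 and 11640 per kb in KO, with 6 of 8 called down and none up. Summed endothelial markers were 824 and 852 in WT and 1450 and 1336 in KO, with 5 of 7 called up, and summed markers of stellate cells (the vitamin A storing, collagen producing cells of the liver) were 135 and 200.1 in WT and 404 and 404 in KO, with 7 of 7 called up. Summed cholangiocyte markers were 51.3 and 49.3 in KO, with 2 of 4 active ones called down. Summed markers of Kupffer cells, the resident macrophages, were 780 and 833 in WT and 975 and 836 in KO, with 0 of 5 called. Summed erythroid markers were 99.3 and 116 in WT and 40.2 and 42.5 in KO, with 4 of 4 called down, and no gene of these lists was at 0. In whole liver nuclei, fewer cells of a type and less RNA per cell cannot be told apart, and the part of these shifts in the changes given below was not tested.

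Transcription of the liver-enriched factors fell in the gene bodies of 8 of the 9 genes and rose in that of *Gata4*. A gene was called changed when limma gave a Benjamini-Hochberg adjusted p under 0.05 over the active genes and an absolute log2 fold change over 0.6. By this rule 11.4% of active genes fell and 10.4% rose. The median log2 fold change was -1.18 over the 9 members and -0.09 over all active genes. The WT and KO libraries did not overlap for any of the 9 genes. With 2 libraries a group, an exact permutation test of a single gene cannot go below p = 0.33 (two-sided), so the p-values rest on the spread pooled over genes.

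**Figure D1:**
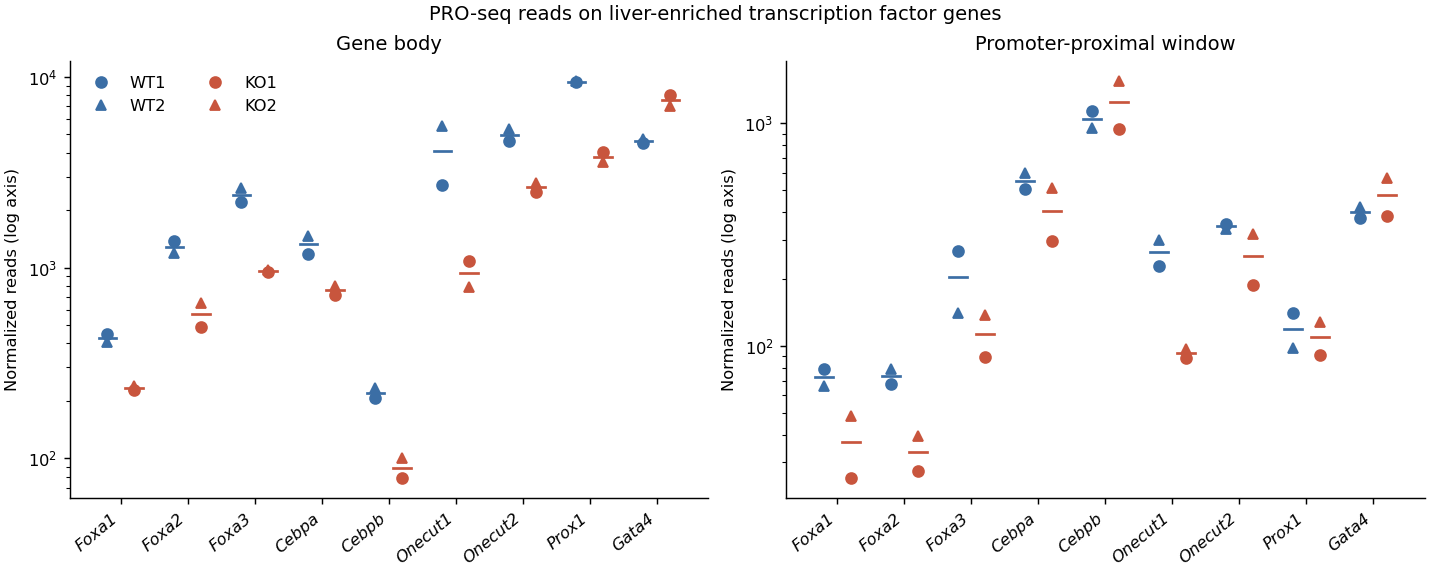
Normalized reads (log axis) of the 9 genes in the gene body (left) and the promoter-proximal window (right), with a point per library (blue WT, red KO, circles replicate 1, triangles replicate 2) and a bar at the mean of each group. In the gene body both KO libraries lie below both WT libraries for 8 genes and above them for *Gata4*, while in the promoter-proximal window the groups overlap for *Cebpa*, *Cebpb*, *Prox1* and *Gata4*.

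The 3 FOXA genes fell together. *Foxa1* (chr12:57540628-57548029, minus strand) had 447 and 408 normalized gene body reads in WT1 and WT2 and 229 and 239.9 in KO1 and KO2, a log2 fold change of -0.86 ± 0.15 (SE, adjusted p = 7.58e-05). *Foxa2* (chr2:148042877-148046969, minus strand), which is needed with *Foxa1* to specify the liver, had 1371 and 1190 in WT and 488 and 651 in KO, a log2 fold change of -1.18 ± 0.14 (adjusted p = 3.87e-07). *Foxa3* (chr7:19013283-19023539, minus strand), which binds many of the liver genes that the other FOXA proteins bind, had 2207 and 2612 in WT and 944 and 970.2 in KO, a log2 fold change of -1.33 ± 0.12 (adjusted p = 4.8e-09). The groups were apart in each of the 3 genes, and the spread within a group was at most 0.42 on the log2 scale, between the KO libraries of *Foxa2*.

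Per length, the summed density of the 3 FOXA gene bodies was 782 and 758 normalized reads per kb in WT and 311 and 369 in KO. *Foxa2* gave 56.7% and 50.8% of this sum in WT and 50.8% and 57.1% in KO. *Foxa3* gave 30.5% and 37.2% in WT and 32.8% and 28.4% in KO. The shares of *Foxa2* and *Foxa3* overlapped between groups, so the level of the family fell without a separation in these shares. *Foxa1* gave 12.8% and 12.0% in WT and 16.4% and 14.5% in KO, a share that did not overlap between groups but was based on the fewest reads of the family.

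Both C/EBP genes fell in the gene body. *Cebpa* (chr7:35119293-35121928, plus strand, 1 exon), a factor of differentiated hepatocytes that restrains their proliferation, had 1184 and 1460 normalized reads in WT and 721 and 799 in KO, a log2 fold change of -0.79 ± 0.13 (adjusted p = 2.62e-05). *Cebpb* (chr2:167688915-167690432, plus strand, 1 exon), which is induced in regeneration and in the acute phase, had 208 and 233 in WT and 78.5 and 100.2 in KO, a log2 fold change of -1.30 ± 0.20 (adjusted p = 1.28e-05). *Cebpb* is so short that its gene body region spans 504 bp, and its values rest on 181, 233, 74 and 66 reads before scaling. Genes on the opposite strand overlap both, *Gm45091* at the start of *Cebpa* and *Tmem189* over the first part of *Cebpb*. *Tmem189* ends at chr2:167689822, before the gene body region of *Cebpb* begins. The ratio of *Cebpa* to *Cebpb* gene body density was 1.75 and 1.93 in WT and 2.83 and 2.45 in KO, and in the promoter-proximal window it was 0.447 and 0.624 in WT and 0.314 and 0.331 in KO. The ratio was thus higher in KO in the gene body and lower in KO at the promoter.

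*Onecut1*, the gene of hepatocyte nuclear factor 6, had the largest fall of the 9 members. At chr9:74861921-74889648 (plus strand), it had 2696 and 5507 normalized gene body reads in WT and 1079.9 and 791 in KO, a log2 fold change of -2.06 ± 0.20 (adjusted p = 1.96e-08). WT2 was high, with 1.03 on the log2 scale between the WT libraries, and the lower WT library still lay 1.32 above the higher KO library on that scale. The log2 fold change was -1.54 without WT2 and -2.57 without WT1, and the call held in both cases. A long noncoding RNA on the same strand, *Gm20649* (chr9:74848463-74891476), spans the RefSeq extent of the gene, so reads of the 2 cannot be told apart. *Onecut2* (chr18:64340032-64398488, plus strand) had 4618 and 5317 in WT and 2497 and 2774 in KO, a log2 fold change of -0.91 ± 0.11 (adjusted p = 6.22e-07). Per length, the gene body ratio of *Onecut1* to *Onecut2* was 1.25 and 2.21 in WT and 0.924 and 0.61 in KO. *Onecut1* was thus the denser of the pair there in both WT libraries and the less dense in both KO libraries. In the promoter-proximal window the ratio was 0.646 and 0.89 in WT and 0.466 and 0.306 in KO, with *Onecut1* the less dense in every library.

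*Prox1* fell as well, with less spread between the WT libraries than any other member. At chr1:190118035-190170827 (minus strand), it had 9374 and 9515 normalized reads in WT and 4041 and 3556 in KO, a log2 fold change of -1.32 ± 0.11 (adjusted p = 1.65e-09). Antisense genes overlap it, *Prox1os* at its start and *Gm28172* further inside the gene.

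*Gata4* rose. At chr14:63198914-63271712 (minus strand), it had 4511 and 4740 normalized gene body reads in WT and 8047 and 7071 in KO, a log2 fold change of 0.71 ± 0.11 (adjusted p = 1.44e-05), or 1.63-fold. Besides its role in the early liver bud, GATA4 is known from the sinusoidal endothelial and stellate cells of the liver. The median log2 fold change was 0.71 over the endothelial markers and 1.25 over the stellate markers, beside the 0.71 of *Gata4*. The ratio of *Prox1* to *Gata4* gene body density was 1.97 and 1.90 in WT and 0.475 and 0.476 in KO. The 2 genes thus changed places in the gene body, where the WT and KO ratios lay far apart against a spread within groups of at most 0.05 (SD). In the promoter-proximal window the ratio was 0.371 and 0.233 in WT and 0.237 and 0.225 in KO. There the groups overlapped, and *Prox1* was less dense than *Gata4* in every library.

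Set beside the hepatocyte markers, whose median gene body log2 fold change was -1.37 and whose range was -1.76 to -0.28, the 8 members that fell were not alike. *Foxa3*, *Prox1* and *Cebpb* lay within 0.07 of the marker median, 0.04, 0.05 and 0.06 above it. *Foxa2* lay 0.19 above it, and *Onecut2*, *Foxa1* and *Cebpa* lay 0.45, 0.50 and 0.57 above it. With 1 library left out, the difference took either sign for *Foxa3* (-0.13 to 0.14), *Prox1* (-0.013 to 0.036), *Cebpb* (-0.21 to 0.32) and *Foxa2* (-0.13 to 0.47). It stayed positive for *Onecut2*, *Foxa1* and *Cebpa*. *Onecut1* lay 0.69 below the marker median and below each of the 8 markers, a gap that was smaller, 0.23, without WT2, when 1 marker fell further. Those 8 markers were themselves unequal, with *Ttr* (transthyretin) at -0.30 and *Fgb* (a fibrinogen chain) at -0.28, neither called.

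**Figure D2:**
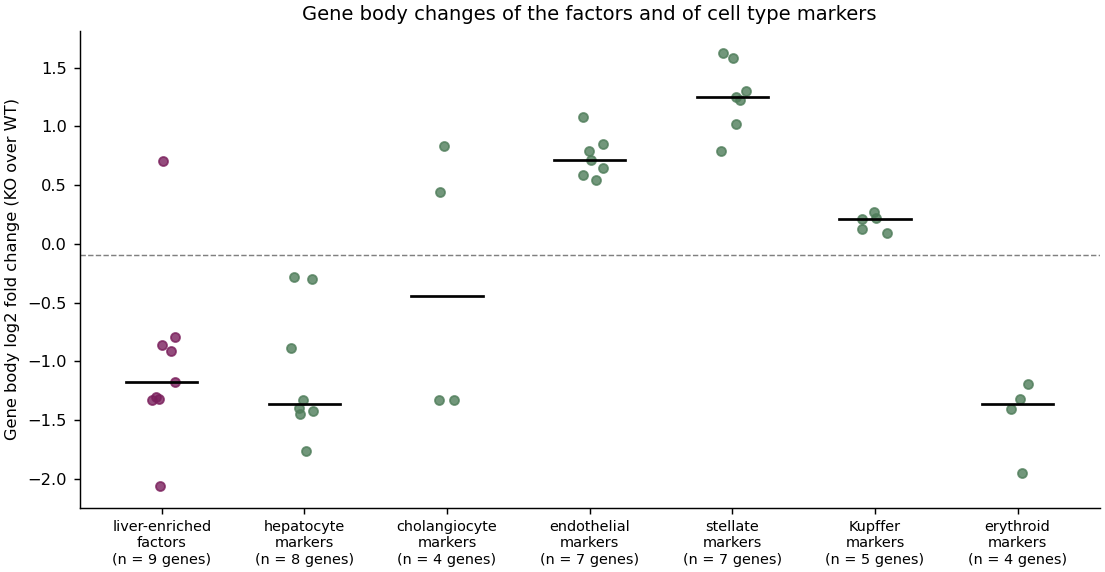
Gene body log2 fold change (KO over WT) of the 9 liver-enriched factors and of the active markers of 6 cell types, with a point per gene, a black bar at the median of each list and a dashed line at the median of all active genes. The points of the 8 factors that fell lie in the range of the hepatocyte markers or, for *Onecut1*, below it, and that of *Gata4* lies among the endothelial markers.

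The order of the members by gene body density differed between genotypes. In WT it ran from *Cebpa* (807 ± 119 normalized reads per kb, SD, n = 2) through *Cebpb* (437 ± 35.5), *Foxa2* (414 ± 41.4), *Foxa3* (260.3 ± 30.9), *Prox1* (197 ± 2.09), *Onecut1* (153 ± 74.4), *Gata4* (102 ± 3.57) and *Foxa1* (95.3 ± 6.21) to *Onecut2* (87.0 ± 8.65). The libraries of *Cebpb* and *Foxa2*, and those of each neighbouring pair from *Prox1* to *Onecut2*, overlapped, so these neighbours did not differ beyond their spread. In KO, *Cebpa* was again highest (464 ± 33.3 per kb). *Foxa2* (184 ± 37.4), *Cebpb* (177 ± 30.5) and *Gata4* (167 ± 15.2) followed with overlapping libraries, and then *Foxa3* (103 ± 1.99), *Prox1* (79.3 ± 7.16), *Foxa1* (52.2 ± 1.69), *Onecut2* (46.1 ± 3.43) and *Onecut1* (35.0 ± 7.64) without overlap between neighbours. *Gata4* moved from the 7th to the 4th place and *Onecut1* from the 6th to the last. Against all active genes, *Onecut1* went from the 93.3 to the 49.4 percentile of gene body density, while *Cebpa* stayed at 99.5 and 99.2.

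At the promoters fewer of the changes passed the test, and the SE of the members was larger, 0.28 to 0.38 against 0.11 to 0.20 in gene bodies. Fewer calls there thus do not mean smaller changes. Promoter-proximal reads fell at *Foxa1*, *Foxa2* and *Onecut1*, 3 of the 9 members, and rose at none, whereas 2.20% of active genes fell and 25.8% rose. *Onecut1* had 228 and 300 normalized promoter-proximal reads in WT and 88.0 and 97.2 in KO, a log2 fold change of -1.49 ± 0.33 (SE, adjusted p = 0.000181). *Foxa2* had 67.7 and 79 in WT and 27.6 and 39.5 in KO, a log2 fold change of -1.12 ± 0.38 (adjusted p = 0.0181). *Foxa1* had 79.2 and 66 in WT and 25.5 and 48.6 in KO, a log2 fold change of -1.02 ± 0.38 (adjusted p = 0.0319). The groups were apart in all 3 genes, but *Foxa1* and *Foxa2* rest on 24 to 79 reads before scaling, and neither was called when any 1 of the 4 libraries was left out. *Onecut1* kept its call in 3 of these 4 cases and lost it without WT2 (log2 fold change -1.29). Fewer of all active genes were called down in each of these 4 cases as well.

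*Foxa3* had 268 and 141 normalized promoter-proximal reads in WT and 89.1 and 138 in KO, a log2 fold change of -0.80 (adjusted p = 0.0526). The groups were apart by little, since WT2 and KO2 were nearly level. *Onecut2* had 353 and 337 in WT and 189 and 317 in KO (log2 fold change -0.49, adjusted p = 0.201), and its groups did not overlap. *Cebpa* had 509 and 596 in WT and 297 and 513 in KO (-0.50, adjusted p = 0.18), with overlap. The promoter-proximal values of the other members differed less between groups. *Prox1* had 139.98 and 98 in WT and 91.2 and 128 in KO (-0.12, adjusted p = 0.797), *Cebpb* had 1140.5 and 955 in WT and 947 and 1550.2 in KO (0.22, adjusted p = 0.547), and *Gata4* had 377 and 421 in WT and 385 and 566 in KO (0.23, adjusted p = 0.55). KO2 was higher than KO1 at all 9 promoters, by 0.14 to 0.91 on the log2 scale, and the median of the same difference over all active genes was 0.36.

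The median promoter-proximal log2 fold change of all active genes was 0.56 on the authors' scaling, and each of the 9 members lay below it, by 0.33 (*Gata4*) to 2.05 (*Onecut1*). When the promoter-proximal values were scaled to a median near 0, by median-of-ratios or TMM factors within the region, 6 members were called down (*Cebpa*, *Foxa3* and *Onecut2* in addition), and *Cebpb* and *Gata4* turned from 0.22 and 0.23 to -0.36 and -0.34. Over all active genes the same change of scaling moved the promoter-proximal calls from 3282 up and 280 down to 634 up and 942 down with median-of-ratios factors. The gene body calls of the 9 members were the same under every scaling tried.

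**Figure D3:**
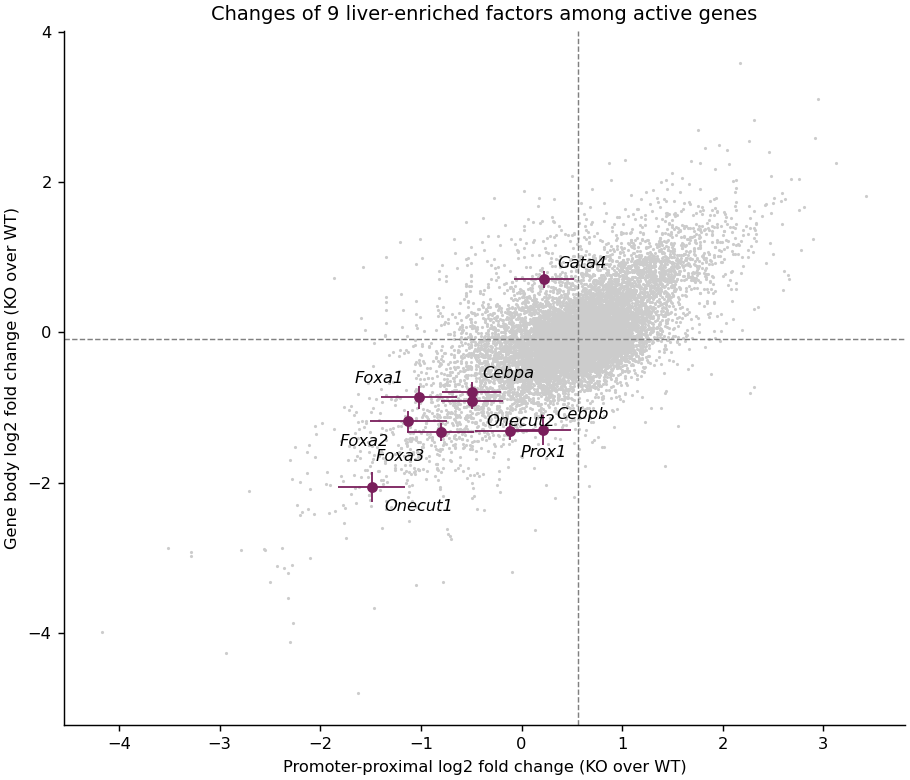
Gene body against promoter-proximal log2 fold change (KO over WT) of the 12705 active genes (grey), with the 9 liver-enriched factors in purple (bars, SE from limma) and dashed lines at the medians of all active genes. All 9 lie left of the promoter-proximal median of 0.56, 8 of them lie below the gene body median, and *Gata4* lies above it. On scaling within the region the promoter-proximal values of *Cebpb* and *Gata4* turn negative.

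The pausing index is the density of the promoter-proximal window over that of the gene body. Of the 9 members only *Cebpb* passed the test, with a rise, beside 11.2% of active genes up and 0.543% down. Its pausing index was 55.1 and 41.2 in WT and 120.2 and 154 in KO, 2.86-fold higher (log2 fold change 1.52 ± 0.47, SE, adjusted p = 0.0242). The groups were apart, with the gene body value lower and the promoter-proximal value overlapping. The call was lost without WT1, WT2 or KO2, where the log2 fold change was 1.73, 1.31 and 1.34. It was also lost with scaling within the region (log2 fold change 0.86 with median-of-ratios, adjusted p = 0.305) and with the replicate number as a block (adjusted p = 0.126). Rises over all active genes were fewer in each of these settings as well. They numbered 1421 in the main run, 2 with median-of-ratios, 4 with TMM and 131 with the block. *Prox1* had the same order of values, 14.4 and 9.97 in WT and 21.9 and 34.6 in KO, with a log2 fold change of 1.20 ± 0.45 that did not pass (adjusted p = 0.0549). At *Gata4* the pausing index was 76.1 and 80.7 in WT and 43.5 and 72.8 in KO, lower in both KO libraries but not called (log2 fold change -0.48, adjusted p = 0.37). *Foxa2* was lowest of the 9 in each library, with 3.10 and 4.15 in WT and 3.61 and 3.84 in KO. The median log2 fold change of the pausing index was 0.42 over the members and 0.61 over all active genes, and the other 5 members lay between -0.15 and 0.57 with overlapping groups.

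**Figure D4:**
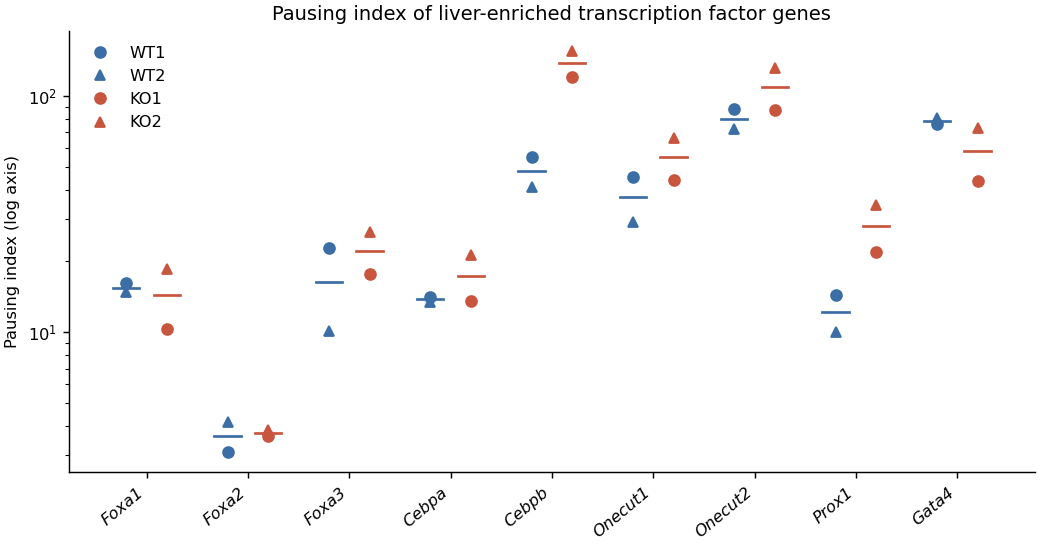
Pausing index (promoter-proximal over gene body density, log axis) of the 9 genes, with a point per library and a bar at the mean of each group. The KO points lie above the WT points for *Cebpb* and *Prox1*, below them for *Gata4*, and overlap them for the other 6.

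Other genes of the same families were compared in the gene body. Of 39 other forkhead genes that were listed, 14 were active, of which 3 fell, 0 rose and 11 were not called (median log2 fold change -0.14). Over all active genes 11.4% fell and 10.4% rose. *Foxq1* had 819 and 959 normalized reads in WT and 194 and 200.4 in KO (log2 fold change -2.16 ± 0.15, adjusted p = 1.02e-10), a larger fall than that of any FOXA gene. *Foxo1*, the insulin-regulated factor of gluconeogenic genes, had 12851 and 12210 in WT and 7273 and 7141 in KO (-0.80 ± 0.11, adjusted p = 2.4e-06). Of the other 11 C/EBP, GATA, ONECUT and PROX genes 8 were active, of which *Gata2* alone was called, with a rise (median 0.00). This count, 1 of 8, is near the 10.4% of all active genes that rose. *Gata2*, a factor of endothelial and blood cells, had 139 and 164 in WT and 295 and 285 in KO (0.94 ± 0.17, adjusted p = 0.000121). The called GATA genes, *Gata4* and *Gata2*, thus both rose, and the other active GATA genes were not called. The endothelial and stellate markers also rose, and a link between these rises was not tested.

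Of 25 other transcription factors of the hepatocyte network, all active, 9 fell, 3 rose and 13 were not called in the gene body. Their median log2 fold change was -0.52, and the shares over all active genes were 11.4% down and 10.4% up. *Hnf4a*, the nuclear receptor at the centre of the network, had 17104 and 17557 normalized reads in WT and 5615 and 6374 in KO (-1.53 ± 0.11, adjusted p = 2.61e-10). *Klf15*, a factor of amino acid use in fasting, had 7414 and 8237 in WT and 2375 and 2739 in KO (-1.61 ± 0.11, adjusted p = 1.41e-10). *Nr2f2* (COUP-TFII), which is also known from venous endothelium and mesenchyme, had 2634 and 2935 in WT and 4582 and 4382 in KO (0.69 ± 0.11, adjusted p = 1.77e-05). Its relative *Nr2f1* was low, with 43.6 and 54 in WT and 90.2 and 82.0 in KO (0.81 ± 0.25, adjusted p = 0.0125).

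Of 22 hepatocyte genes whose promoters or enhancers are known sites of liver-enriched factors, 14 fell and 1 rose in the gene body (median -1.25). Over all active genes 11.4% fell and 10.4% rose. This list of 22 holds all 8 of the hepatocyte markers. *Cyp8b1*, an enzyme of bile acid synthesis that sets the share of cholic acid, had 264 and 207 normalized reads in WT and 35.0 and 22.8 in KO (-3.004 ± 0.25, adjusted p = 1.82e-09).

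The deposited list of 2282 enhancers, which NRSA called from nascent transcripts outside genes on reads pooled over the libraries, gives no value per genotype. Of the 9 members, *Cebpa* and *Gata4* had a listed enhancer within 50 kb, as did 9.83% of active genes. *Cebpa* had 8, and no other active gene had as many. These enhancers lay on both sides of *Cebpa*, with the nearest center 11258 bp from its start (chr7:35106652-35108628), and 4 of them were also within 50 kb of its neighbour *Cebpg*. The list named *Cebpa* the closest gene for 3 of the 8, at distances of 10665, 25391 and 29526 bp. *Gata4* had 1 enhancer with 2 centers (chr14:63252063-63272941), at a listed distance of 6803 bp from its start. That region overlaps the longer RefSeq model of *Gata4*, whose start lies 26.5 kb upstream of that of the measured transcript, so gene transcripts from there cannot be told apart from enhancer transcripts. *Prox1* was the closest gene of 2 listed enhancers, at 100655 and 115151 bp, and *Foxa2* of 1, at 123553 bp. In all, 4 of the 9 members were the closest gene of a listed enhancer, beside 10.9% of active genes, and *Foxa1*, *Foxa3*, *Cebpb*, *Onecut1* and *Onecut2* were the closest gene of none in this list.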

How the data were processed

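The data are 4 PRO-seq libraries of nuclei from mouse liver on postnatal day 14, 2 WT and 2 *Hdac3* KO, grouped by their labels. The authors trimmed reads with cutadapt, mapped them with Bowtie2 to mm10, discarded ribosomal and poorly mapped reads, and ran NRSA for the counting over 20820 RefSeq transcripts. The deposited values are read counts for WT2, whose factor is 1, and for WT1, KO1 and KO2 signal, the counts multiplied by 1 factor per library (1.15, 1.06 and 1.52), with densities as signal per bp. Division by the factors gave whole reads (within 0.01) for 100% of the values. The enhancer list holds positions and distances in bp and other annotation, with no values per library. NRSA counts the promoter-proximal window on the coding strand, and the strand setting for gene bodies is not given in the sources used here.

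Symbols with several transcripts were represented by the one highest in mean promoter-proximal value, and genes with reads there and over 4 normalized gene body reads per kb were active. The study states this density for its own scaling, and it was applied here to the deposited values. Log2 values (normalized reads plus 1, so that fold changes of low genes are understated) were compared with limma 3.58.1 in R 4.3.3 (a linear model without a block and empirical Bayes moderation with a trend), and p-values were adjusted by Benjamini-Hochberg over the 12705 active genes. In this design limma took the place of the study's count test, and of its stratified test of the pausing index. Alternatives were edgeR 4.0.16 and DESeq2 1.42.0 on the recovered reads, pseudocounts of 0.1 and 10, no filter, 3 other scalings, a replicate block, another choice of transcript and each library left out. The tests of the 2 regions were also run on simulated counts, with no outcome given here, and that of the pausing index was not. Summaries used Python 3.11.15 with numpy 2.4.6 and pandas 2.3.3, and plots matplotlib 3.10.9. Gene positions are the extent of each gene in RefSeq (GRCm38.p6), and overlapping genes are from GENCODE vM21, whose models can end elsewhere, both on GRCm38, the assembly named mm10 by the authors, and enhancer positions are those of the list.

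The 9 members and the gene lists were chosen with earlier results of these data known, so counts over them are descriptions. Besides the members, the text names *Hdac3* and, in each list, up to 2 largest rises and 2 largest falls among called genes with at least 50 normalized gene body reads, the 3 active genes most like the member with the largest change, and the closest listed enhancers of members. Some genes that this rule would name are not reported here. *Ttr*, *Fgb*, *Alb*, *Apoa1*, *Cebpg* and the overlapping genes are named outside this rule, after their values were seen. Nothing in the labels says that same-numbered libraries were paired, and the correlation of deviations from the group mean between WT1 and KO1 was -0.11 in promoter-proximal regions and 0.02 in gene bodies.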

Additional observations from a re-analysis of the deposited data

How the results depend on the processing

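In gene bodies, the calls of all 9 members held in every alternative run except the test without a filter on activity, over 20642 genes. There 3 were called down (*Foxa1*, *Foxa3*, *Prox1*) and 0 up, with adjusted p from 0.0398 to 0.119 over the 9. Of all 20642 genes, 591 were called down and 406 up in that test. Leaving out 1 library left 8 down and 1 up in each case. In promoter-proximal windows 3 members were called down in the report, beside 280 of all active genes. With median-of-ratios and TMM scaling within the region 6 and 6 were called, beside 942 and 949. With edgeR 4 were called (*Foxa3* in addition, adjusted p = 0.0392), beside 265. With median-of-ratios factors of gene bodies for both regions 2 were called (without *Foxa1*, adjusted p = 0.0734), beside 192. DESeq2 called 1, beside 166. Without the filter no gene at all was called there. With 1 library left out, the log2 fold change was -1.47 to -0.56 for *Foxa1*, -1.38 to -0.87 for *Foxa2* and -1.69 to -1.29 for *Onecut1*. In the pausing index 1 member (*Cebpb*) was called up in the report, beside 1421 of all active genes. With a pseudocount of 0.1, 0 members were called, beside 994 rises over all active genes. Without the filter no gene was called. With median-of-ratios or TMM scaling within the region 0 members were called, beside 2 and 4 rises. With a pseudocount of 10, 2 were called (*Prox1* in addition), beside 2388. The log2 fold change of the *Cebpb* pausing index was 1.31 to 1.73 with 1 library left out. The cause was not tested.

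With a replicate block, 1 promoter-proximal fall (*Onecut1*) and 0 changes of the pausing index were called, and no gene body call changed. Over all active genes that block gave 177 promoter-proximal falls and 131 rises of the pausing index. With the crossed replicate block (WT1 with KO2, WT2 with KO1), chosen after seeing the data, 4 promoter-proximal falls and 2 rises of the pausing index were called. Over all active genes the crossed block gave 399 such falls and 4121 such rises, so these counts are no added evidence about the members.

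With scaling within the region (median-of-ratios, then TMM), the promoter-proximal log2 fold changes that turned negative were *Cebpb* (-0.36, -0.36) and *Gata4* (-0.34, -0.34), and those of the pausing index were *Foxa2* (-0.59, -0.58), *Foxa3* (-0.13, -0.13), *Cebpa* (-0.36, -0.35), *Onecut1* (-0.0801, -0.0787) and *Onecut2* (-0.23, -0.23). With 1 library left out, promoter-proximal values of either sign were seen for *Cebpb* (-0.14 to 0.57), *Prox1* (-0.37 to 0.14) and *Gata4* (-0.0499 to 0.51), and pausing index values of either sign for *Foxa1* (-0.57 to 0.27), *Foxa2* (-0.16 to 0.27), *Foxa3* (-0.062 to 1.10) and *Cebpa* (-0.0241 to 0.62). None of these values was called. A group reduced to 1 library is assumed to vary like the other. Depth limits the promoter-proximal values of *Foxa1* and *Foxa2* most, at 24 to 79 reads.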

Other observations

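Of the cofactors and regulators of the liver-enriched factors 13 were compared, all active. In the gene body 10.4% of all active genes rose and 11.4% fell. Of the 13 genes *Zfpm2* (FOG2, the partner protein of GATA4) alone was called there, with a rise. It had 2100 and 2237 normalized reads in WT and 5870.5 and 5282 in KO, a log2 fold change of 1.36 ± 0.11 (SE, adjusted p = 9.83e-10). Its density was low, 4.68 and 4.99 normalized reads per kb in WT and 13.1 and 11.8 in KO, and endothelial and stellate markers rose in the same libraries. The gene body median of the 13 was -0.05, against -0.09 for all active genes. In the promoter-proximal window 5 of the 13 were called up and 0 down, beside 25.8% and 2.20% of active genes. In the pausing index 2 of the 13 were called up and 0 down, beside 11.2% and 0.543%.

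The gene body profile of *Onecut1*, with WT2 above WT1 and both KO libraries low, was most like those of *Iqcd*, *AY512931* and *3930402G23Rik* among active genes outside the lists. The root mean square difference of their centred log2 values over the 4 libraries was 0.084, 0.128 and 0.170. *Iqcd* had 134 and 252 normalized reads in WT and 56.2 and 41.0 in KO, *AY512931* had 96.4 and 201 in WT and 33.9 and 31.9 in KO, and *3930402G23Rik* had 190.5 and 320 in WT and 54.1 and 45.5 in KO.

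*Afp*, the fetal liver gene, fell in the gene body with a wide spread between KO libraries. WT1 held 948 and WT2 1390 normalized reads, against 722 in KO1 and 115 in KO2 (log2 fold change -1.99 ± 0.42, adjusted p = 0.000556).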
